A study of Homo sapiens with 6 samples.

Results

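The 10 genes described here encode antioxidant enzymes and the transcription factor NRF2 with several of its targets: NFE2L2, GCLC, GCLM, TXNRD1, SRXN1, NQO1, HMOX1, SOD1, SOD2 and CAT. They form a list of symbols, matched through the gene ID of each probe set, and all 10 were found among 23931 named genes on 24726 probe sets. They were measured on Affymetrix arrays in 6 tumours of Huh7, an established human hepatocellular carcinoma line. The cells of 3 tumours held pRcCMVi.hIR-A(GFP), a plasmid that expresses the A isoform of human insulin receptor (these are the IR-A tumours), and those of the other 3 held the vector with no insert (control tumours). Both kinds of cells were stable transfectants chosen by G418 resistance and, by cytometry, GFP. The tumours grew under the skin of nude mice, which lack a thymus but keep innate immune cells. The labels do not say whether a line was 1 clone or a pool, nor name the mouse or culture behind any tumour. The p-values therefore measure the spread among these 6 samples, and that spread may be technical.

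NRF2, encoded by NFE2L2, is a transcription factor that KEAP1 marks for degradation in unstressed cells. When oxidants or electrophiles modify KEAP1, NRF2 accumulates, pairs with small MAF proteins and binds antioxidant response elements of genes for glutathione synthesis, thioredoxin reduction, quinone detoxification and heme breakdown. NRF2 is controlled largely through the stability of its protein, which arrays of RNA do not measure. Superoxide dismutases turn superoxide into hydrogen peroxide, which catalase, peroxiredoxins and glutathione peroxidases remove. The comparison asks how transcript levels of these genes in tumours differed with the added receptor.

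SOD2 and CAT, the mitochondrial superoxide dismutase and catalase, had more signal in all 3 IR-A tumours than in any control tumour, 1.69-fold (95% interval 1.35 to 2.13) and 1.60-fold (1.14 to 2.24) on average. GCLC, the catalytic subunit of the first enzyme of glutathione synthesis, had less, at 0.757 of the control level (0.621 to 0.924). SRXN1, NQO1 and SOD1 were also below every control tumour, but by small amounts. TXNRD1, GCLM, HMOX1 and NFE2L2 overlapped between the groups. In the limma fit 0 of the 10 genes had an adjusted p under 0.05, against 0% of all 24726 probe sets (3493 had an unadjusted p under 0.05).

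At an unadjusted p under 0.05 in limma there were 3 of the 10 genes, SOD2 and CAT higher and GCLC lower, against 14.1% of all probe sets (7.1% higher and 7.03% lower). The groups did not overlap in 6 of the 10 genes, 2 higher and 4 lower, against 17.2% of all probe sets (7.73% higher and 9.45% lower). In NQO1, SRXN1 and SOD1 only 0.02 to 0.03 separated the nearest tumours. All 10 genes were brighter than the median probe set, while these shares include dim probe sets. The median log2 difference was -0.18 over the 10 genes and -0.026 over all probe sets. In these bulk tumours, fewer cells of a type and less RNA per cell cannot be told apart.

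**Figure D1:**
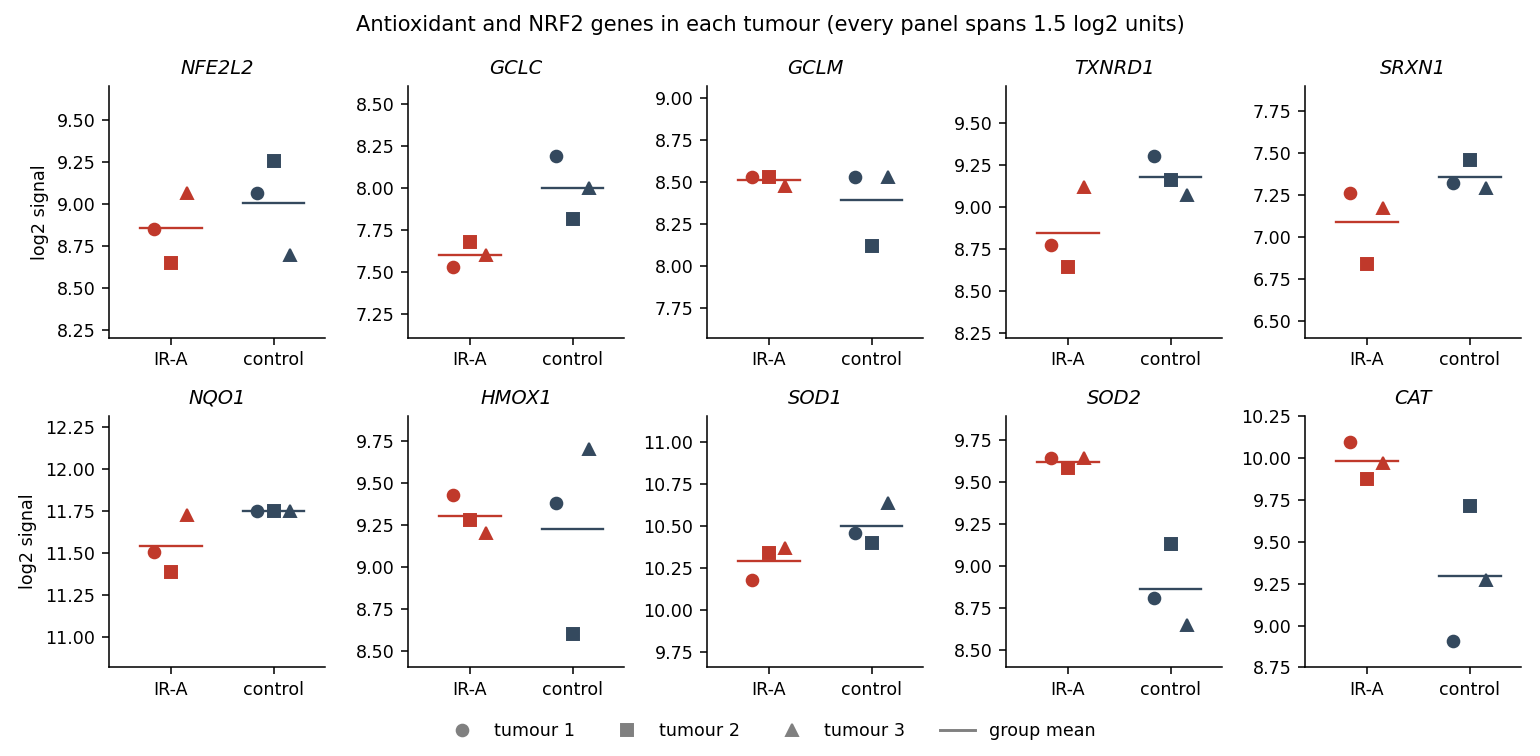
Log2 signal of each of the 10 genes (vertical axes, each spanning the same range on its own scale) in the 3 IR-A and the 3 control tumours, with symbols for tumours 1 to 3 and lines for group means. SOD2 and CAT lie higher and GCLC lower in every IR-A tumour than in any control tumour, and control tumour 2 is the lowest point of GCLM and HMOX1.

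The added receptor was visible in the arrays. INSR, the insulin receptor gene, had a log2 signal of 10.65, 11.31 and 11.01 in IR-A tumours, against 8.04, 7.61 and 8.47 in control tumours (2.95 higher on the log2 scale, adjusted p = 0.0769 in limma, and 2.74 with adjusted p = 0.0261 when control tumour 2 is left out). Its probe set does not separate the receptor's isoforms. Control tumour 2 stood apart from its group: over all probe sets it correlated less well with control tumours 1 and 3 (mean r = 0.9816) than with the IR-A tumours (mean r = 0.9865). Where leaving it out changed the call or the direction of a named gene, both values are given. Values here are log2 signals, so a difference of 1 is a doubling, and levels are compared between tumours and not between genes. Differences are IR-A minus control, in log2 units, with limma's moderated standard error (SE) and 95% interval over 3 tumours per group.

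NFE2L2 read 8.85, 8.65 and 9.07 in IR-A tumours and 9.07, 9.26 and 8.70 in control tumours. The ranges overlapped over most of their width. The log2 difference was -0.15 (SE 0.18, 95% interval -0.58 to 0.28, adjusted p = 0.772). Without control tumour 2 the difference was -0.026, and without control tumour 3 it was -0.31.

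KEAP1, the adaptor that presents NRF2 for degradation, read 7.40, 7.54 and 7.75 in IR-A tumours and 7.96, 7.58 and 7.59 in control tumours. The groups overlapped, with a difference of -0.15 (SE 0.15, adjusted p = 0.728), which was -0.021 without control tumour 1, -0.065 without IR-A tumour 1 and -0.24 without IR-A tumour 3. Among 12 measured genes of NRF2 control, 0 passed the test, and 5 differences were above 0 and 7 below. The smallest p values belonged to MAFG, a small MAF partner of NRF2, at -0.33 (SE 0.12, adjusted p = 0.298), and SQSTM1, an autophagy receptor that binds KEAP1 and is itself an NRF2 target, at -0.35 (SE 0.15, adjusted p = 0.38). All MAFG values of IR-A tumours lay below those of control tumours, with 0.04 between the nearest tumours, while SQSTM1 overlapped and differed by -0.48 without control tumour 2 and -0.22 without control tumour 3.

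GCLC and GCLM encode the 2 subunits of glutamate-cysteine ligase, the rate-limiting enzyme of glutathione synthesis: GCLC holds the active site and GCLM modifies its activity. GCLC read 7.53, 7.68 and 7.60 in IR-A tumours and 8.19, 7.82 and 8.0 in control tumours. All IR-A values were lower than all control values, and control tumour 2 was the control nearest to them. The difference was -0.40 (SE 0.12, 95% interval -0.69 to -0.11, unadjusted p = 0.0134, adjusted p = 0.233 in limma). It ran from -0.50 without control tumour 2 to -0.31 without control tumour 1.

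GCLM read 8.53, 8.53 and 8.48 in IR-A tumours and 8.53, 8.12 and 8.53 in control tumours. In 4 of 6 arrays the deposited value was identical, and control tumour 2 alone lay well below the rest. The difference of 0.12 (SE 0.13, 95% interval -0.20 to 0.44, adjusted p = 0.755) was -0.017 without control tumour 2. The difference of GCLM exceeded that of GCLC by 0.52, and the within-tumour contrast of the 2 genes did not overlap between groups. Its exact permutation test, two-sided, gave p = 0.1, the smallest that 3 against 3 tumours allow. The test therefore cannot establish that the 2 subunits differed. In the 4 arrays with the same GCLM value, the contrast follows GCLC alone. The excess was 0.48 without control tumour 2.

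The region from 250 bases before to 50 bases after the annotated start of both subunit genes is shown as a description of their sequences. Sequences are from RefSeq on GRCh38.p14, written 5′ to 3′ on the gene's strand, and capitals mark each match to TGACNNNGC, a core of the antioxidant response element, on either strand.
GCLC (chr6:53545052-53545351, minus strand): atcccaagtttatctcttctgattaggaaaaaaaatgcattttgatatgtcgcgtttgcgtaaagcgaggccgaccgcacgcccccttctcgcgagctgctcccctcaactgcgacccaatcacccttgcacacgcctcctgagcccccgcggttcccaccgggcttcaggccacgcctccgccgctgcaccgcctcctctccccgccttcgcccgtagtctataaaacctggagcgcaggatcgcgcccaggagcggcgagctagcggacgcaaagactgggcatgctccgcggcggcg
GCLM (chr1:93909381-93909680, minus strand): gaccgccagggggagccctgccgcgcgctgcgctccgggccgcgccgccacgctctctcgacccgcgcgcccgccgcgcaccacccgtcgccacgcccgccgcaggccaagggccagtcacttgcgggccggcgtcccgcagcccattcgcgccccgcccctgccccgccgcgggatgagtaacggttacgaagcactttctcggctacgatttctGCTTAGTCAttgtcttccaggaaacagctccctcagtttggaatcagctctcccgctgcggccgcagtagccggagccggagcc

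The GCLM window held 1 match, from position -34 to -26 on the opposite strand, and the GCLC window held no match. Elements outside these windows were not searched, so a gene without a match here may still hold one elsewhere. The part of a match in the signals was not tested. Of 35116 promoter windows of this length, 13.3% held a match. Of the 10 genes, 8 were in the promoter table with 13 windows, and GCLM and TXNRD1 were the 2 genes with a match. SOD1 and HMOX1 were not matched there.

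In the thioredoxin branch, TXNRD1 encodes the cytosolic thioredoxin reductase, a selenoprotein that keeps thioredoxin reduced. It read 8.77, 8.64 and 9.12 in IR-A tumours and 9.30, 9.16 and 9.07 in control tumours. IR-A tumours 1 and 2 lay below all controls, and IR-A tumour 3 lay among them. The difference was -0.33 (SE 0.15, 95% interval -0.68 to 0.02, adjusted p = 0.38). It was -0.47 without IR-A tumour 3 (unadjusted p = 0.00971 in limma, adjusted p = 0.258) and -0.23 without IR-A tumour 2.

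TXNRD1 has 2 annotated starts in the promoter table, and both windows are shown because each holds the TGACNNNGC core in capitals.
TXNRD1, upstream start (chr12:104215529-104215828, plus strand): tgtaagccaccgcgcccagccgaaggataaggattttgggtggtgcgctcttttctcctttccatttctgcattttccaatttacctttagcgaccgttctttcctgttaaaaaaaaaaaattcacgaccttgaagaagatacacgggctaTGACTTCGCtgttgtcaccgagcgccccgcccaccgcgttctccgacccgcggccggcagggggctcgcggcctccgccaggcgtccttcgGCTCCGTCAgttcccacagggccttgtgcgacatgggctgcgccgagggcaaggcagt
TXNRD1, downstream start (chr12:104286782-104287081, plus strand): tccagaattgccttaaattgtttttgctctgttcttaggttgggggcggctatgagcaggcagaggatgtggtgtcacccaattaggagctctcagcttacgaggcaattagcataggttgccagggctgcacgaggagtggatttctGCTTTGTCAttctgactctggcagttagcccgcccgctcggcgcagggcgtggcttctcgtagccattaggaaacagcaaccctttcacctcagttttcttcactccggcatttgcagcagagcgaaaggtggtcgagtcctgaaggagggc

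The upstream window held 2 matches, from -99 to -91 and from -8 to 1, and the downstream window held 1, from -102 to -94. The arrays give 1 value per gene and do not say which start was used.

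SRXN1, sulfiredoxin, restores overoxidised peroxiredoxins. It read 7.26, 6.84 and 7.17 in IR-A tumours and 7.32, 7.46 and 7.29 in control tumours. The groups did not overlap, but 0.03 separated the nearest tumours, they overlapped once arrays were centred on their medians, and IR-A tumour 2 was the lowest of all. The difference of -0.27 (SE 0.13, 95% interval -0.58 to 0.05, adjusted p = 0.44) was -0.14 without IR-A tumour 2.

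NQO1 reduces quinones by a transfer of electron pairs and is a much used readout of NRF2 activity. It read 11.51, 11.39 and 11.73 in IR-A tumours and 11.75 in each of the 3 control tumours. The control values were identical as deposited, which held for 0.692% of probe sets, so the control spread of NQO1 is not informative. The nearest IR-A tumour lay 0.02 below them. The difference was -0.21 (SE 0.11, 95% interval -0.47 to 0.06, adjusted p = 0.477), and after quantile normalization of the deposited values it was -0.067. The groups overlapped in that scaling and with arrays centred on their medians. Without IR-A tumour 2 it was -0.13.

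HMOX1, the inducible heme oxygenase that opens heme to biliverdin, iron and carbon monoxide, read 9.43, 9.28 and 9.20 in IR-A tumours and 9.38, 8.60 and 9.70 in control tumours. The IR-A tumours lay within the control range, which was the widest of the 10 genes (SD 0.11 in IR-A and 0.56 in control tumours, n = 3 each). The difference was 0.08 (SE 0.27, 95% interval -0.57 to 0.73, adjusted p = 0.934). Control tumour 2 was the lowest tumour, and without it the difference was -0.23 (adjusted p = 0.392).

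**Figure D2:**
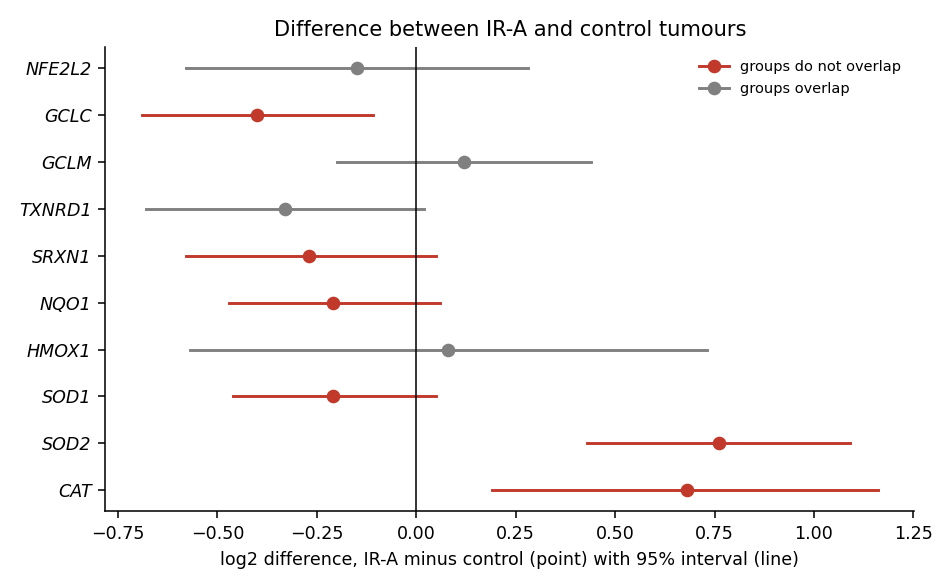
Log2 difference, IR-A minus control, of each gene (point) with its 95% interval from limma (line). Red marks genes whose groups do not overlap, and the intervals of GCLC, SOD2 and CAT leave out 0.

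SOD1 encodes the copper and zinc superoxide dismutase of the cytosol and SOD2 the manganese enzyme of the mitochondrial matrix. SOD1 read 10.18, 10.34 and 10.37 in IR-A tumours and 10.46, 10.40 and 10.64 in control tumours. The IR-A tumours were all lower, with a gap of 0.03 between the nearest tumours. The difference was -0.21 (SE 0.11, 95% interval -0.46 to 0.05, adjusted p = 0.462) and ran from -0.26 to -0.14 with 1 tumour left out. CCS, the chaperone that loads copper into SOD1, overlapped between groups (difference -0.09, SE 0.24, adjusted p = 0.906).

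SOD2 read 9.64, 9.58 and 9.64 in IR-A tumours and 8.81, 9.13 and 8.65 in control tumours. The IR-A values were nearly alike (SD 0.03), the control values were more spread (SD 0.25), and 0.45 separated the nearest tumours. The difference of 0.76 (SE 0.14, 95% interval 0.43 to 1.09) had an unadjusted p of 0.00107 in limma, rank 176 of 24726 probe sets, and an adjusted p of 0.147. Control tumour 2 was the control with the most SOD2. Without it the difference was 0.90 and passed the threshold (adjusted p = 0.0330), as did 1.25% of all probe sets in that fit. Over all settings tried the difference stayed between 0.65 and 0.90, and the adjusted p ran from 0.0330 to 0.477.

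The difference of SOD2 exceeded that of SOD1 by 0.97. The groups did not overlap in the within-tumour contrast (exact permutation test, two-sided, p = 0.1, the smallest possible). Both outcomes were fixed once SOD2 was higher and SOD1 lower in every IR-A tumour, so they add no support. This contrast and that of GCLM and GCLC were the 2 pairs compared. The excess ran from 0.79 without control tumour 3 to 1.15 without control tumour 2.

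CAT, the peroxisomal and cytosolic heme enzyme that splits hydrogen peroxide, read 10.09, 9.87 and 9.97 in IR-A tumours and 8.91, 9.71 and 9.27 in control tumours. Control tumour 2 lay 0.16 below the nearest IR-A tumour, and the other controls lay further away. The difference was 0.68 (SE 0.20, 95% interval 0.19 to 1.16, unadjusted p = 0.0136, adjusted p = 0.233 in limma). Leaving out control tumour 2 gave 0.88 (adjusted p = 0.0571), and leaving out control tumour 1 gave 0.48 (adjusted p = 0.493).

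The promoter windows of CAT and of the SOD2 start with the most matches are shown because these are the genes with more signal in IR-A tumours. Capitals mark GGGCGG, the GC box bound by SP1, on either strand.
CAT (chr11:34438684-34438983, plus strand): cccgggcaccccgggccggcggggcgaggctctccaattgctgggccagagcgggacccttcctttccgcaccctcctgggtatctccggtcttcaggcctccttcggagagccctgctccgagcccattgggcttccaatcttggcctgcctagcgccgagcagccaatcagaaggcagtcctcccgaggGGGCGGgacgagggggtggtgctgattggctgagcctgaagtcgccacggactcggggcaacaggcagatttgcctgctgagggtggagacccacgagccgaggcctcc
SOD2 (chr6:159693192-159693491, minus strand): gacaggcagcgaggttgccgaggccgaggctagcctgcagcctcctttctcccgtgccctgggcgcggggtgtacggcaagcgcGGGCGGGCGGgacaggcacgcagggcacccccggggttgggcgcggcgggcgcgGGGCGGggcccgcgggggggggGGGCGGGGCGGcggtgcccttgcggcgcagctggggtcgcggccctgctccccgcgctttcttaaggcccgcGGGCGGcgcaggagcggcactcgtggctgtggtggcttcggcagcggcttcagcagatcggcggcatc

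The SOD2 window held 6 GC boxes, some overlapping, and the CAT window held 1. Windows of the other SOD2 starts held 4, 1 and 1. Such a box occurred in 45.0% of all windows and in 11 of the 13 windows of these genes, several of them alternative starts of SOD2. By gene, 6 of 8 held one. GCLM, NFE2L2, TXNRD1 and NQO1, none of them higher in every IR-A tumour, were among these. The part of GC boxes in the signals was not tested. The FOXO core GTAAACA was in 0 of the 13 windows, but only 3.42% of all windows held it, so 0 says little. Sequence outside the windows was not searched.

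**Figure D3:**
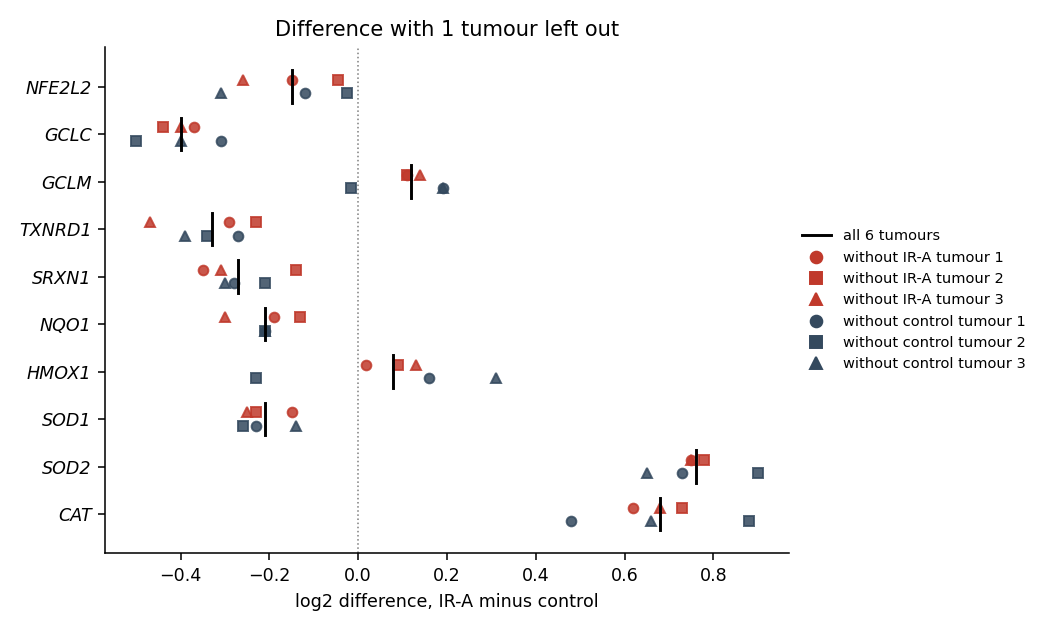
Log2 difference, IR-A minus control, of each gene with all 6 tumours (black bar) and with 1 tumour left out (points, by tumour). GCLM and HMOX1 cross 0 without control tumour 2, while the other 8 genes stay on 1 side of it. For genes whose groups do not overlap, SOD2, CAT and GCLC among them, this was fixed in advance.

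Of 11 listed regulators of SOD2 and CAT, 10 were measured and 0 passed the test. The smallest p values belonged to PPARGC1A, a coactivator known to raise antioxidant enzymes, at 1.44 (SE 0.27, adjusted p = 0.147), and STAT3, a transcription factor of cytokine signalling, at 0.99 (SE 0.21, adjusted p = 0.155). PPARGC1A read 6.76, 7.33 and 6.24 in IR-A tumours and 5.14, 5.49 and 5.38 in control tumours, and STAT3 read 8.83, 8.67 and 8.67 in IR-A tumours and 7.27, 7.80 and 8.13 in control tumours. Neither overlapped between groups. PPARA, a nuclear receptor that controls peroxisomal genes, was the 1 other regulator without overlap, at 8.03, 8.45 and 7.81 in IR-A tumours and 6.26, 7.22 and 7.25 in control tumours (1.19, adjusted p = 0.19). FOXO1, FOXO3, NFKB1, RELA and SP1 overlapped. Arrays of RNA do not measure the activity of the proteins these regulators encode.

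By Pearson correlation over the 6 tumours, the genes most like SOD2 among 11925 others above the median signal were CBX5 (r = 0.9987), C6 (0.9944), FNDC3A (0.9938), TRIM2 (0.9935) and TIPARP (0.9923). As many as 522 genes exceeded r = 0.9. CBX5 encodes a heterochromatin protein and C6 a component of the terminal complement complex. C6 read 9.61, 8.61 and 9.11 in IR-A tumours and 5.01, 6.70 and 4.26 in control tumours, with control tumour 2 the highest control, as for SOD2. The points share the 2 groups, so these values describe the pattern only.

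Across the other genes of the pathway, 115 of 127 listed genes in 10 lists were measured and 0 passed an adjusted p of 0.05 in limma. At an unadjusted p under 0.05 there were 16 higher and 6 lower of the 115, against 7.1% and 7.03% of all probe sets. The groups did not overlap in 16 higher and 11 lower, against 7.73% and 9.45% of all probe sets. The median difference was 0.043, with 65 above 0 and 50 below.

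Other NRF2 targets were mixed. Of 13 measured, 8 had differences above 0 and 5 below, with a median of 0.15. EPHX1, a microsomal epoxide hydrolase, read 9.83, 9.44 and 9.30 in IR-A tumours and 8.01, 9.09 and 8.35 in control tumours, a difference of 1.04 (SE 0.29, adjusted p = 0.212), or 1.35 without control tumour 2 (adjusted p = 0.0505). UGDH, which makes UDP-glucuronate, read 10.28, 10.22 and 10.41 in IR-A tumours and 10.61, 10.58 and 10.63 in control tumours, a difference of -0.30 (SE 0.09, adjusted p = 0.236). Both were without overlap, in opposite directions.

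Genes of glutathione synthesis, reduction and peroxidases had a median of -0.079, with 5 of 16 above 0 and 11 below. GPX1, the abundant cytosolic glutathione peroxidase, read 6.67, 6.66 and 6.88 in IR-A tumours and 7.17, 7.15 and 7.08 in control tumours, and differed by -0.40 (SE 0.10, adjusted p = 0.183). GLRX3, a glutaredoxin of iron-sulfur cluster handling, differed by -0.47 (SE 0.17, adjusted p = 0.299). Both were below every control tumour. Glutathione transferases had a median of 0.12, with 7 of 11 above 0. Their smallest p values were those of GSTP1 at -0.36 (SE 0.15, adjusted p = 0.365) and GSTA1 at 0.73 (SE 0.35, adjusted p = 0.423). GSTP1 was -0.21 without IR-A tumour 2. GSTA1 was 0.37 without control tumour 3 and 1.12 without control tumour 2. Transferases have close paralogs, and signal shared between their probe sets was not checked.

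Thioredoxins, peroxiredoxins and sestrins had a median of 0.099, with 9 of 17 above 0. The sestrins SESN3 (0.82, SE 0.19, adjusted p = 0.171) and SESN1 (0.96, SE 0.35, adjusted p = 0.307), stress proteins that restrain mTORC1, had the smallest p values. SESN3 read 8.0, 7.84 and 8.01 in IR-A tumours and 7.33, 7.36 and 6.69 in control tumours, without overlap. SESN1 overlapped through control tumour 2, without which its difference was 1.32 (adjusted p = 0.0798).

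NADPH supply showed the largest lower difference among these lists. TKT, the transketolase of the pentose phosphate pathway, read 8.16, 8.20 and 8.49 in IR-A tumours and 9.60, 8.85 and 9.53 in control tumours. The difference of -1.04 (SE 0.22, adjusted p = 0.155) was -1.28 without control tumour 2, where it passed (adjusted p = 0.0288) as the 1 of 115 pathway genes that did, against 1.25% of all probe sets in that fit. NNT, the mitochondrial transhydrogenase that makes NADPH, read 9.35, 9.27 and 9.13 in IR-A tumours and 7.76, 8.95 and 8.35 in control tumours, a difference of 0.90 (SE 0.28, adjusted p = 0.247), or 1.19 without control tumour 2 (adjusted p = 0.0571). The 10 measured genes were split evenly, 5 above 0 and 5 below.

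Of 10 measured peroxisome genes, 8 differences were above 0, with a median of 0.16. AGXT, a peroxisomal aminotransferase that clears glyoxylate, differed by 1.40 (SE 0.55, adjusted p = 0.33), or 0.71 without control tumour 1, which at 5.33 was far below the other controls at 7.33 and 7.46. DAO, the D-amino acid oxidase that yields hydrogen peroxide, differed by 0.83 (SE 0.30, adjusted p = 0.296), or 0.49 without control tumour 1. Among 9 measured sources of superoxide and peroxide, 7 differences were above 0. NOX4, an NADPH oxidase that releases hydrogen peroxide, was dim at 4.85, 4.46 and 4.33 in IR-A tumours and 4.06, 3.82 and 3.97 in control tumours (0.60, SE 0.15, adjusted p = 0.192). XDH, xanthine dehydrogenase, differed by 0.29 (SE 0.11, adjusted p = 0.304). Around HMOX1, heme genes had a median of 0.031 over 7 genes. HEBP1, a heme-binding protein, differed by 0.63 (SE 0.26, adjusted p = 0.347) and was 0.38 without control tumour 1, and SLC48A1, a heme transporter, differed by -0.17 (SE 0.10, adjusted p = 0.531), or -0.10 without IR-A tumour 2.

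**Figure D4:**
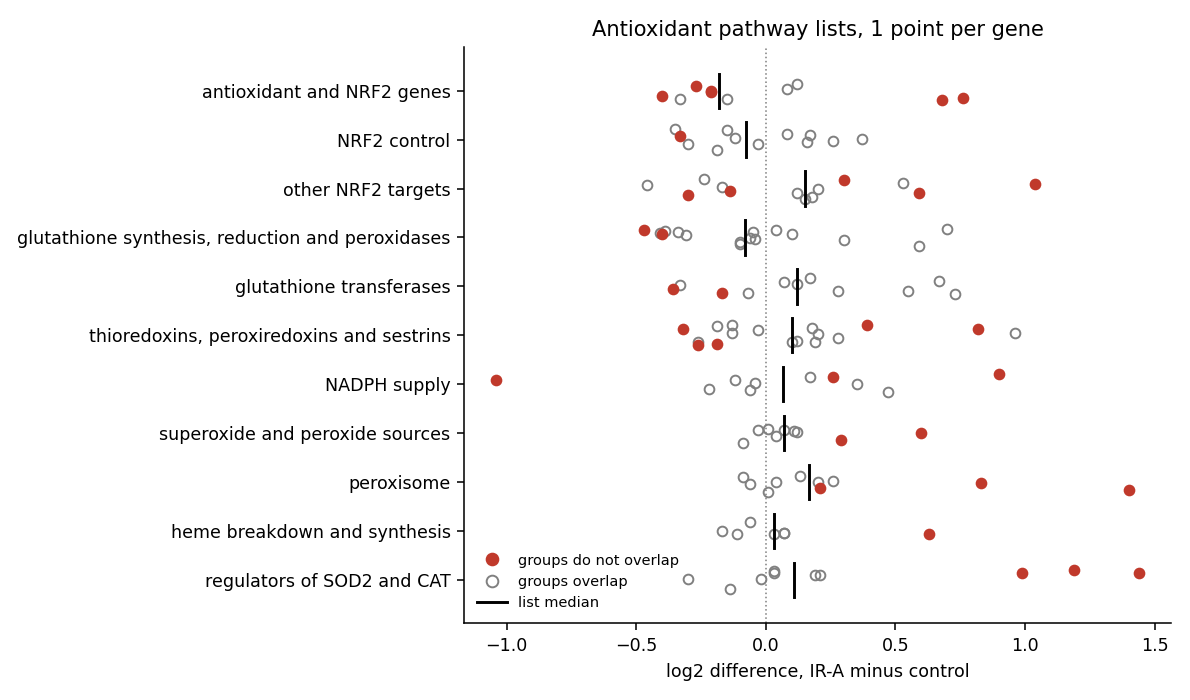
Log2 difference, IR-A minus control, of each measured gene (1 point per gene) in the 10 genes (top row) and in the 10 pathway lists, with the list median as a black bar and red points where the groups do not overlap. SOD2 and CAT stand to the right of the other 8 genes of the top row, and TKT is the leftmost point of all lists.

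The labelled cell type fitted its markers, since 9 measured hepatocyte and hepatoma markers, ALB and AFP among them, were bright. Their mean was 12.13 to 12.23 in IR-A tumours and 11.81 to 12.04 in control tumours, and 5 of 9 (APOA1, APOB, FGB, GPC3 and TF) were higher without overlap, against 7.73% of all probe sets, while ALB, AFP, TTR and SERPINA1 overlapped. In the 6 marker lists 0 genes passed the test. Macrophage markers averaged 4.65 to 4.77 in IR-A and 4.49 to 4.87 in control tumours, with 5 of 7 below the median probe set of 4.71. PTPRC, the common leukocyte antigen, read 2.84 to 2.87 in IR-A and 2.87 to 2.99 in control tumours. CD68, a lysosomal protein abundant in macrophages, was the 1 of 7 without overlap, at 11.13, 11.01 and 10.73 in IR-A tumours and 9.94, 10.35 and 10.70 in control tumours (0.62, SE 0.21, adjusted p = 0.271). Neutrophil markers averaged 4.55 to 4.66 in IR-A and 4.43 to 4.66 in control tumours, and S100A8 (-0.10, adjusted p = 0.66) was the 1 of 6 without overlap, on the lower side. Endothelial markers averaged 4.08 to 4.14 in IR-A and 4.01 to 4.09 in control tumours, and erythroid markers 4.64 to 4.78 in IR-A and 4.42 to 4.81 in control tumours. PECAM1 (0.51, adjusted p = 0.332) was the 1 of 6 endothelial markers and ALAS2 (0.26, adjusted p = 0.335) the 1 of 5 erythroid markers that were higher without overlap. Fibroblast markers averaged 4.64 to 4.83 in IR-A tumours and 4.26 to 4.35 in control tumours, and 3 of 7 (COL1A1, COL1A2 and LUM) were higher without overlap. LUM was dim, with a mean of 4.24 in IR-A and 2.98 in control tumours. PDGFRB, COL3A1, ACTA2 and DCN overlapped, the last pair with differences of -0.06 and -0.01. Below the median probe set were 3 of 7 fibroblast, 3 of 6 neutrophil, 5 of 6 endothelial and 3 of 5 erythroid markers. Beside each of these counts without overlap, the share of all probe sets was 7.73% higher and 9.45% lower. The mean levels of the hepatocyte and fibroblast lists, like SOD2 and CAT, were thus higher in every IR-A tumour than in any control tumour. This was not particular to marker lists. It also held for superoxide and peroxide sources (5.11 to 5.14 in IR-A, 4.97 to 5.04 in control tumours) and regulators of SOD2 and CAT (6.98 to 7.2 in IR-A, 6.61 to 6.83 in control tumours). The part of the hepatocyte and fibroblast markers, and of CD68, PECAM1 and ALAS2, in the differences of SOD2 and CAT was not tested. Probe sets are designed for human transcripts, so mouse host RNA is read where it binds them, and these means are no measure of host cells.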

How the data were processed

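Total RNA (500 ng per tumour, Trizol) was labelled with a whole-transcript Affymetrix kit, per the labels' protocols. The values the authors deposited are log2 signals, with 1 value for each probe set on each array. The submitters' processing notes list RMA and Partek, with no version and no role for either. Array model and genome build: not given in the sources used here. That the scale is log2 was read from the values, with array medians from 4.66 to 4.74. Such processing can shrink differences where signal is low, and 1 value per gene cannot tell transcripts apart.

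Probe sets were named through GEO's platform annotation (23934 with 1 symbol, 792 unnamed, none with several), and for symbols with several probe sets the brightest was kept. Limma 3.58.1 in R 4.3.3 (lmFit, eBayes, no trend, no filter) was fitted to all 24726 probe sets with Benjamini-Hochberg adjustment and a threshold of 0.05, and was tested on simulated data. Named genes were the 10 genes, INSR, KEAP1, the 2 of smallest unadjusted p in each of 10 pathway lists where none passed, and the 5 genes most correlated with the gene of smallest p; CCS, PPARA, other regulators of SOD2 and CAT, and cell type markers were named after their values were seen. The 10 genes and the lists were chosen with earlier results of these data known. Promoters and coordinates are from RefSeq (GRCh38.p14). Alternatives were 2 scalings, 2 filters on dim probe sets, trend, robust moderation, array weights, a replicate block and leaving out each tumour. The number of arrays limits the precision. Figures were drawn with matplotlib 3.10.9.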

Additional observations from a re-analysis of the deposited data

How the results depend on the processing

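Signal over background was not measured, so how far dim probe sets stood above it is not known. Of the 10 genes, 8 kept their direction in all 14 settings. The exceptions were HMOX1 (-0.061 with array weights, -0.23 to 0.31 with 1 tumour left out) and GCLM (-0.017 to 0.19 with 1 tumour left out), both reversed without control tumour 2. In the 6 genes whose groups did not overlap, leaving out 1 tumour could not reverse the direction. The count of the 10 genes called was 0 to 1 with 1 tumour left out, SOD2 passing without control tumour 2, and 0 in every other setting, including an adjusted p under 0.1. At an unadjusted p under 0.05, the 3 genes became 5 after quantile normalization, and 3 to 5 with 1 tumour left out, 5 being without IR-A tumour 3. The share of all probe sets at that p was 14.1% with the deposited values of all 6 tumours. It was not counted in these settings, so a rise particular to the 10 genes cannot be told from a general one. Groups did not overlap in 6 genes as reported and in 6 after quantile normalization, where NQO1 overlapped and TXNRD1 did not. That number was 4 with each array centred on its median, where NQO1 and SRXN1 overlapped. With 1 tumour left out it was 6 to 7, but there it could not fall, since separate groups stay separate when a tumour is removed. The share of all probe sets without overlap was not counted in these settings. Listed pathway genes called were 0 to 1 with 1 tumour left out. All probe sets called were 14 and 20 without the dimmest 25% and 50%, 11 with array weights, 18 at an adjusted p under 0.1, and 0 to 308 with 1 tumour left out; the cause was not tested. INSR passed at 0.05 under both filters on dim probe sets (2.95 each), under array weights (2.87), and when control tumour 2 was left out (2.74), and its adjusted p of 0.0769 was also under 0.1.

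Tumours of the 2 groups share replicate numbers in their titles. Deviations from the group means of same-numbered tumours correlated at -0.294, -0.358 and 0.0203, which gave no sign that the numbers pair the tumours. Deviations within a group cancel out, so the correlations constrain each other and cannot exclude that same-numbered tumours were handled together. With the number as a replicate block, 0 of the 10 genes and 0 probe sets were called, and SOD2 had an adjusted p of 0.342.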
